A study of Mus musculus with 74 samples.

Results

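Macrophages of the sciatic nerve were compared with microglia of the spinal cord in SOD1-G93A mice at end stage after a bone marrow graft. The SOD1-G93A mouse carries a mutant human SOD1 transgene and develops a motor neuron disease that serves as a model of amyotrophic lateral sclerosis. The libraries were taken by their labels: 3 nerve macrophage (MP) and 3 microglia (MG) libraries from G93A females on the C57BL/6J background, all grafted at disease onset with marrow from G93A donors. These are 6 of the 74 libraries in the series and 6 of its 23 grafted libraries, which fall into 8 groups. Host and donor both carried the mutant transgene, so mutant SOD1 is shared by every library compared here. The age of the grafted mice, the conditioning before the graft and the share of graft-derived cells were not given in the sources used here, so host cells and graft cells are not separated.

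Spinal cords and nerves came from perfused mice and were dissociated in the cold without enzymes. Myelin was removed on Percoll, and cells were captured with magnetic beads against CD11b, the integrin encoded by Itgam. An MG library came from 1 spinal cord, with 100000 to 180000 cells recovered, while both sciatic nerves of 1 mouse went into each MP library, with 30000 to 50000 cells. RNA levels were deposited as FPKM, which scales the fragments of a gene by its length and by the size of the library. The same cell difference was also measured in 3 other sets of G93A mice. They are G93A hosts with marrow from wildtype human SOD1 donors at end stage (WT marrow, 3 MP and 3 MG), G93A hosts with G93A marrow in early symptoms (3 and 3) and G93A mice without a graft at end stage (4 and 4, mean age 169.4 days).

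Microglia arise from the yolk sac, renew themselves inside the central nervous system and depend on the receptor Csf1r, on TGF-beta signalling and on the transcription factor Sall1. Near degenerating neurons they lose part of this homeostatic programme and switch on a lipid-handling, phagocytic programme that needs the receptor Trem2, known as the disease-associated state. Macrophages of peripheral nerve lie outside the blood-brain barrier and are replaced in part from marrow monocytes. CD11b is also carried by monocytes and by neutrophils, so bead capture does not remove either of them.

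FPKM sums ran from 537808 to 553950 in MG and from 615421 to 670943 in MP, and 9930 to 10381 genes were above 1 FPKM per MG library against 9255 to 9665 per MP library. Read depth is unknown. The MG libraries carried microglial markers: 28 of 29 homeostatic genes in the table were above 1 FPKM in all 3. The MP libraries did not hold macrophages alone. The 20 neutrophil markers summed to 158260.0, 118380.0 and 125590.0 FPKM in MP replicates 1, 2 and 3 against 1357, 1423 and 900.3 in MG, which is 23.6, 19.2 and 19.5% of all FPKM in the MP libraries, and 20 were above 1 FPKM in all 3 MP libraries. Of these percentages, 14.13, 10.69 and 11.36% came from S100a8 and S100a9, chosen after their values were seen. The sum is therefore not a share of cells. Erythroid markers summed to 17022, 6620.3 and 11521 FPKM in MP and 289, 125.4 and 43.3 in MG, and monocyte markers to 16610.0, 8940.0 and 23871 and 142, 130.2 and 135.97. A single gene, Chil3, gave most of the monocyte sum in each MP library (values below), so that sum does not measure monocyte content. In these bulk samples, fewer cells of a type and less RNA per cell cannot be told apart.

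MP replicate 2 stood apart from the other MP libraries through genes that were lower in MP than in MG. Over all genes tested, the MP libraries correlated at 0.919 (replicates 1 and 2), 0.93 (1 and 3) and 0.904 (2 and 3). Among 1155 genes called lower in MP with at least 5 FPKM in MG, MP replicate 2 was the highest MP library for 749, replicate 1 for 192 and replicate 3 for 214. The median of these genes was 11% of the MG mean in MP replicate 1, 24.3% in replicate 2 and 10.5% in replicate 3. For the homeostatic list the medians were 1.36, 23.1 and 0.463%, while the NADPH oxidase and reactive oxygen list stood at 493, 446 and 424%. Replicate 2 was not highest for microglial genes alone. The nerve and border macrophage list stood at 3.25, 29.2 and 6.23% and the lysosome list at 14.7, 34.8 and 19.5%. For the TGF-beta pathway list, at 21, 18.2 and 16.1%, it was not the highest. Of the 151 called genes named here, 55 had a fold change that moved by over 1.5 times without this library, 54 of them to a larger size, and none turned its direction. List counts without it are given where they moved, and fold changes without it for those of them described with their FPKM in both groups.

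**Figure D1:**
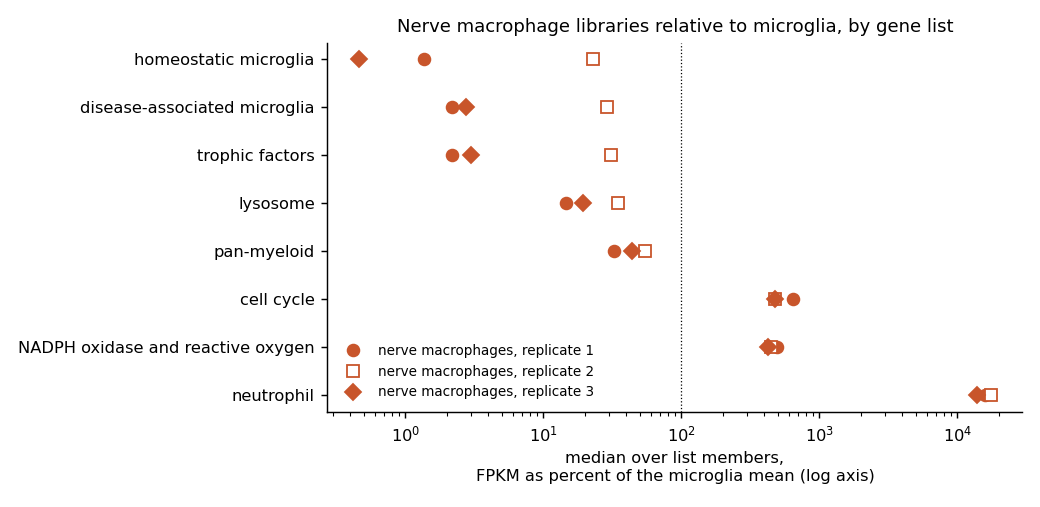
Each point is 1 MP library and gives the median, over a list's members with at least 5 FPKM in MG, of FPKM as a percent of the mean of the 3 MG libraries (log axis, dotted line at 100%). MP replicate 2 (open squares) lies near 23.1% for homeostatic genes, where the other MP libraries lie at 1.36 and 0.463%, and beside them for the NADPH oxidase and reactive oxygen list and the neutrophil list.

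Of 11068 genes tested, 3103 (28%) differed between MP and MG with limma on log2(FPKM + 1) at a Benjamini-Hochberg adjusted p under 0.05. Of these, 1658 (15%) were higher in MP and 1445 (13.1%) lower, and 433 of the higher and 307 of the lower genes differed by at least 3 on the log2 scale. The 3 MP values lay wholly above the 3 MG values for 2939 genes (26.6%) and wholly below for 3156 (28.5%), 55.1% of genes in all. Without MP replicate 2, 2691 genes (24.2%) were called, 1444 higher and 1247 lower. The balance of directions depends on scaling: 1401 genes were higher and 1791 lower after median-ratio scaling, and 1346 and 1910 after scaling each library to the same sum. Scaling to the same sum outside the neutrophil, monocyte and erythroid lists, chosen after seeing the data, gave 1995 higher and 1307 lower. The median fold change of all genes was -0.085 on the log2 scale as deposited, -0.245 after median-ratio scaling, -0.371 after scaling to the same sum and 0.027 after scaling outside those lists, so list medians are set against -0.085. List counts are to be read against the 15% of all genes called higher and the 13.1% called lower. All fold changes given refer to log2(FPKM + 1) and are positive where MP was higher.

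The largest positive difference was that of Lrg1, a secreted glycoprotein stored in neutrophil granules, with 1937, 1400.3 and 3165 FPKM in MP against 3.71, 6.6 and 5.6 in MG, a log2 fold change of 8.37 ± 1.14 (SE), adjusted p = 1.92e-05. The remaining 14 of the top 15 were Ltf, Ngp, Mmp8, Cd177, Hp, Mmp9, Slpi, Camp, Chil3, Itgb2l, Fcnb, Il1r2, Anxa1 and Retnlg, with log2 fold changes from 7.20 to 8.28. The largest negative difference was Fcrls, an Fc receptor-like gene of microglia, at -7.09. It was followed by Gfap, Mobp, Trem2, Spp1, Gpnmb, Cst7, Olfml3, Tmem119, Gpr34, Aldoc, C1qa, Sparc, Slamf9 and Cd34, from -6.88 to -5.40. Gfap marks astrocytes and Mobp oligodendrocytes.

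**Figure D2:**
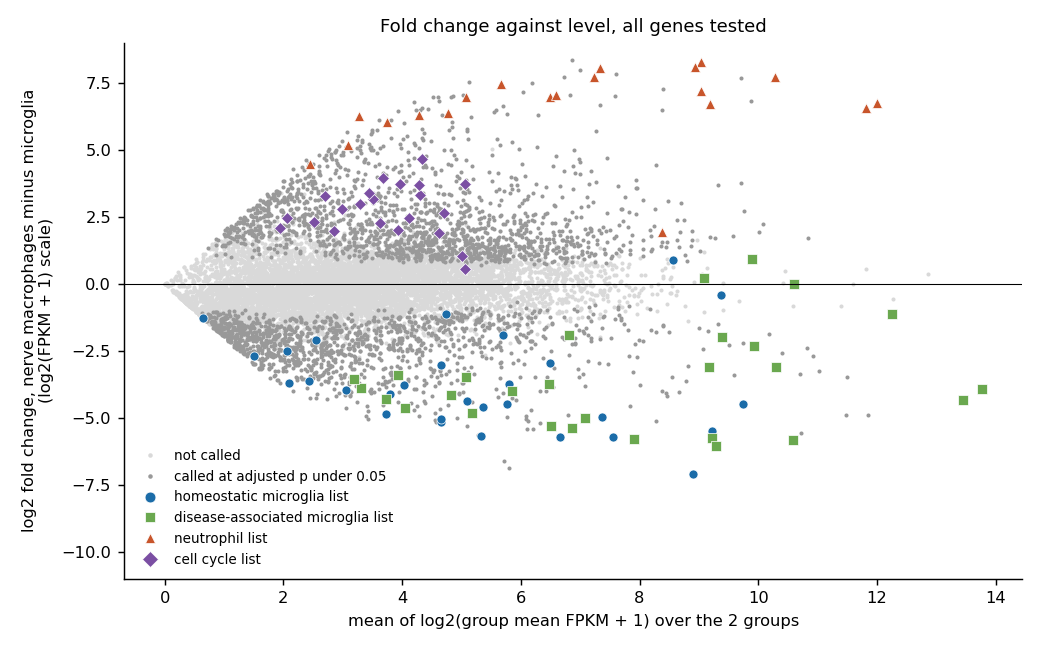
Each point is 1 of the 11068 genes tested. The x axis is the level (mean over both groups of log2(group mean FPKM + 1)) and the y axis the log2 fold change of MP minus MG, with called genes in dark grey and 4 gene lists in colour. Neutrophil genes (triangles) all lie above 0 and cell cycle genes (diamonds) between 0.55 and 4.66, while most homeostatic and disease-associated microglia genes lie below -1.

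Homeostatic microglia genes were lower in MP almost throughout. Of 29 members tested, 25 were lower, against 13.1% of all genes, and none higher, with a median log2 fold change of -3.94 against -0.085 over all genes, and 24 were lower without MP replicate 2 (median -4.78). Tmem119 (chr5:113793730-113800367, mm10), a membrane protein that marks microglia, measured 532, 851 and 494 FPKM in MG and 2.68, 161 and 1.71 in MP. The groups did not overlap, although MP replicate 2 stood far above the other MP libraries. Its log2 fold change was -5.70 ± 1.43 (SE), adjusted p = 0.00508, and -7.59 without MP replicate 2. The ADP receptor P2ry12, which guides microglial processes to injury, measured 198, 110.3 and 185 FPKM in MG and 1.97, 22.9 and 3.03 in MP (-4.60, adjusted p = 0.00486; -5.53 without MP replicate 2). Every MG library was above every MP library.

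The transcription factor genes Sall1 and Sall3 were detected in 1 of the 3 MP libraries. Sall1, which maintains microglial identity, measured 17.1, 19.8 and 13.8 FPKM in MG and was listed at 0 in MP replicates 1 and 3 and at 1.92 in replicate 2. Sall3 was listed at 0 in the same MP libraries and at 0.45 in replicate 2, against 10.9, 24.5 and 9.18 FPKM in MG. Both passed the test, at -3.63 (adjusted p = 1.61e-05) and -3.69 (adjusted p = 9.37e-05) on the log2(FPKM + 1) scale. Fcrls measured 1504, 1547 and 1286 FPKM in MG and 0.86, 472 and 0.36 in MP, with MP replicate 2 between the other MP libraries and MG. Its fold change of -7.09 was -9.82 without MP replicate 2, and its call was lost without MP replicate 1 (adjusted p = 0.0647) or replicate 3 (adjusted p = 0.0679), the libraries at the low end.

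Cx3cr1, the fractalkine receptor, measured 551, 607 and 367 FPKM in MG and 26.5, 129.9 and 0.13 in MP. The MP libraries spread over a wide range and none reached the MG range. The fold change was -4.96 ± 1.12 (SE), adjusted p = 0.00228, and -6.48 without MP replicate 2. The lectin Siglech and the receptor gene Gpr34 were also lower, at -5.16 and -5.67. Tgfbr1, a TGF-beta receptor, was at 157, 75.3 and 182 FPKM in MG and 2.09, 7.03 and 1.55 in MP (-5.03, adjusted p = 3.58e-05). Other members called lower were Olfml3, Slc2a5, Sparc, Crybb1, Golm1, Ltc4s, Rtn4rl1, Lag3, Bin1, Adgrg1, Slco2b1, Nav3, Hpgd, P2ry13 and Upk1b, between -5.71 and -1.28. The call of Upk1b was lost without any 1 of the 6 libraries, and that of P2ry13 without MG replicate 1 (adjusted p = 0.0603) or MP replicate 3 (adjusted p = 0.0586). Crybb1 lost its call without MP replicate 1 (0.0518) or 3 (0.0594), and Upk1b stood at adjusted p from 0.0557 to 0.128.

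Some members of the list did not pass the test. Selplg, the ligand of selectins on most leukocytes, measured 696, 1008 and 612 FPKM in MG and 578, 609 and 521 in MP. Vsir, an inhibitory receptor of myeloid and T cells, measured 262, 308 and 259 and 609, 441 and 481. The log2 fold changes were -0.41 (adjusted p = 0.446) and 0.87 (adjusted p = 0.0659). St3gal6, a sialyltransferase, was at -1.12, adjusted p = 0.175. In a limma fit of only these 6 libraries, Vsir (adjusted p = 0.0147) and St3gal6 (0.0263) were called. Adding a block on replicate number to that fit, an alternative chosen after seeing the data, called both too (0.0143 and 0.02).

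**Figure D3:**
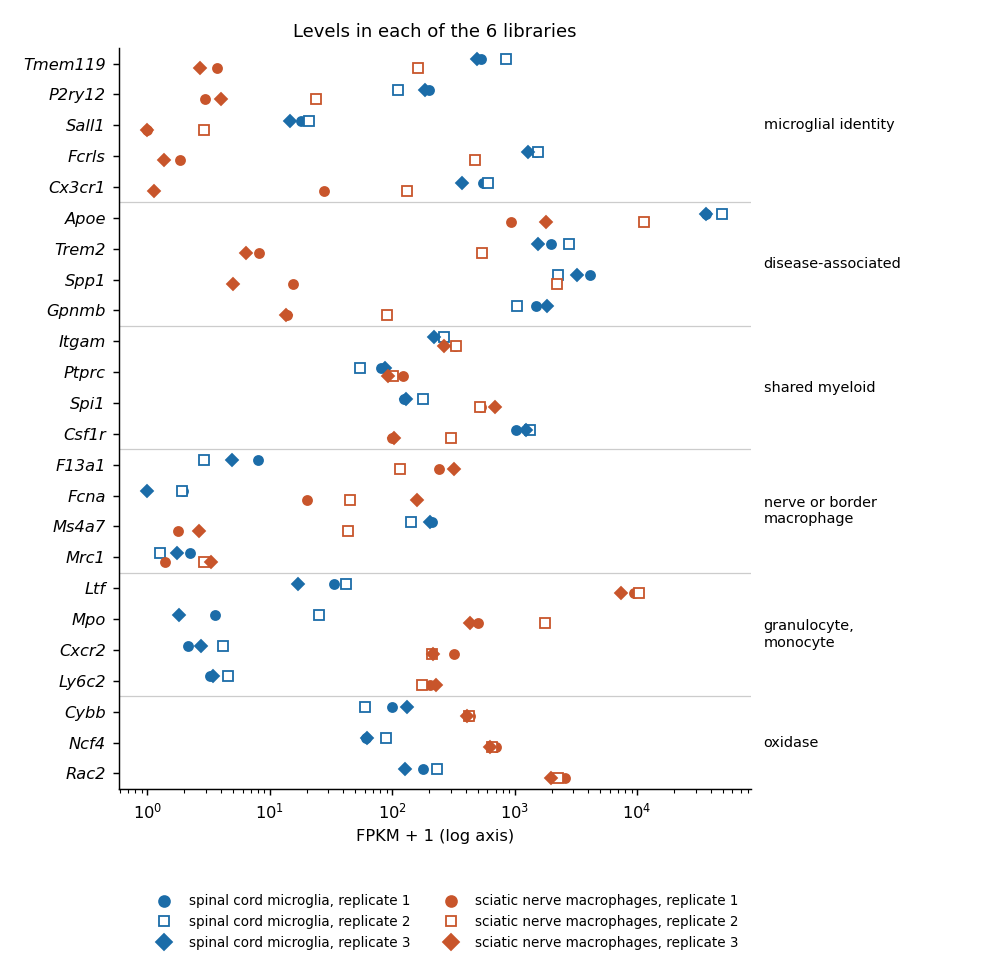
Each row is 1 gene and each symbol 1 library, with FPKM + 1 on a log axis, blue for MG, orange for MP, and open squares for replicate 2. Itgam and Ptprc lie at like levels in both cell preparations, Tmem119 to Gpnmb lie to the right in MG with MP replicate 2 between the groups, and Ltf, Mpo, Cxcr2 and Ly6c2 lie to the right in MP.

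Genes shared by myeloid cells were measured next. Itgam, the gene of the capture antigen, measured 253, 262 and 219.8 FPKM in MG and 323, 329.6 and 264 in MP. The MP values were all above the MG values by a small margin, and the difference of 0.32 ± 0.44 (SE), adjusted p = 0.634, did not pass the test. Ptprc, the pan-leukocyte phosphatase CD45, measured 79.4, 53.3 and 86.4 and 121.4, 100.01 and 90.9 FPKM (0.53, adjusted p = 0.437). Itgb2, the beta chain that pairs with CD11b, was at 0.60 (adjusted p = 0.233). Of the 24 pan-myeloid genes tested, 3 were higher in MP and 10 lower, with a median of -1.33.

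The 3 higher genes were Spi1, Coro1a and Ncf1. Spi1, which encodes the myeloid master regulator PU.1, measured 123.2, 179 and 127.6 FPKM in MG and 527, 521 and 686 in MP (2.01, adjusted p = 0.000139). Coro1a, an actin regulator of leukocytes, was higher at 2.73 and Ncf1, an oxidase subunit, at 1.78. The lower genes included receptors and enzymes of mature macrophages. Csf1r, the receptor for the macrophage growth factor, measured 1028, 1338 and 1246 FPKM in MG and 97.7, 299 and 101.7 in MP, without overlap (-3.05, adjusted p = 0.00134). Aif1, which encodes the widely used macrophage marker Iba1, measured 395, 356 and 302 and 11.7, 133.2 and 7.81 FPKM (-3.83, adjusted p = 0.00587; -5.05 without MP replicate 2).

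Mertk, a receptor for apoptotic cells, was lower at -3.92, the Fc receptor Fcgr1 at -3.37, the pore-forming protein gene Mpeg1 at -3.23, the lysosomal glycoprotein Cd68 at -3.12 and the protease Ctss at -3.24. Without MP replicate 1 or 3 the calls of Ctss (adjusted p = 0.067 and 0.0608) and Fcgr1 (0.0602 and 0.0663) were lost. Laptm5, Cebpa and Irf8 were lower at -1.86, -2.09 and -1.64, and Irf8 lost its call without MG replicate 1 or 2 or MP replicate 1 or 3, at adjusted p from 0.0773 to 0.216. Adgre1, the gene of the F4/80 antigen, measured 97.5, 76.5 and 115.7 FPKM in MG and 22, 35.7 and 41.6 in MP. Its groups did not overlap, but at -1.54 and adjusted p = 0.0548 it missed the threshold with the deposited scaling. After median-ratio scaling it was called (adjusted p = 0.0179), as it was after scaling to the same sum (0.0343). It was called too in the 6-library fit without the block (0.00252) and with it (0.00114). Fcgr3, Cd53, Fcer1g, Tyrobp, Cd14, Unc93b1 and Cyba did not pass either, with fold changes from -1.86 to 0.77. In the 6-library fit without the block, Fcer1g (0.0269), Tyrobp (0.0173), Cd14 (0.00254), Unc93b1 (0.0294) and Cyba (0.0192) were called. With the block they were called too (0.0258, 0.0148, 0.000367, 0.015 and 0.0194).

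Genes of nerve and border macrophages did not move as a group. Of 25 tested, 5 were higher in MP and 6 lower, against 15 and 13.1% of all genes, with a median of 0.47. F13a1, a coagulation factor chain made by monocyte-derived macrophages, measured 7.07, 1.92 and 3.93 FPKM in MG and 242, 114.4 and 316 in MP, far apart (5.41, adjusted p = 1.6e-05). Fcna, a ficolin of the lectin complement pathway, measured 0.97, 0.93 and 0 and 19.2, 44.2 and 157 FPKM, with MP replicate 3 the highest (5.07, adjusted p = 0.00858; 0.0518 without that library). The C-type lectin genes Clec10a, Cd209a and Mgl2 were higher at 3.14, 3.80 and 2.83, with MP replicate 1 the highest for each. Without that library only 3 list members were called higher, and Cd209a (adjusted p = 0.0582) and Mgl2 (0.0948) lost their calls. Mgl2 lost its call also without MP replicate 2 (0.0529) or MG replicate 3 (0.0513).

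Other macrophage receptors of the list were lower in MP. Ms4a7, a membrane gene of border macrophages, measured 211, 142 and 201 FPKM in MG and 0.77, 42.3 and 1.64 in MP, without overlap (-4.96, adjusted p = 0.00172; -6.40 without MP replicate 2). The scavenger receptor genes Stab1 and Colec12 were lower at -3.82 and -4.62, the sialic acid receptor Siglec1 at -2.88, the endocytic adaptor Dab2 at -3.36, and Gas6, the bridge between apoptotic cells and Mertk, at -4.32. The mannose receptor gene Mrc1 was low in both, at 1.25, 0.28 and 0.76 FPKM in MG and 0.39, 1.92 and 2.32 in MP, with overlapping groups (0.47, adjusted p = 0.709). Cd163 measured 1.61, 0.25 and 7.97 FPKM in MP and did not exceed 0.59 in MG (1.05, adjusted p = 0.327).

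The remaining members of the list were not called. Lyve1 was under the filter of a mean of 1 FPKM. Pf4, Folr2, Ccl8, Ninj1 and Cbr2 ran from -1.60 to 1.18, and Cd209d, Ccl24, Retnla, Timd4, Ednrb, Ccl6 and Ccl9 from 0.15 to 1.81. Retnla, a secreted protein of alternatively activated macrophages, measured 4.48, 2.6 and 14.3 FPKM in MP and 0.1, 0.39 and 3.54 in MG. Ccl6 was abundant in both, at 393, 200.2 and 267 FPKM in MG and 893, 936 and 789 in MP, and just missed the threshold (1.65, adjusted p = 0.0563; 0.0341 with the replicate number as a block). In the fit of only these 6 libraries, Ccl6 (0.0015), Folr2 (0.0182) and Retnla (0.0444) were called. With the block added they were called again (0.000945, 0.0147 and 0.00272), and so was Ccl9 (0.0328).

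Genes that mark marrow-derived macrophages were higher in MP: 13 of 22 were called, none lower, with a median of 2.47. Anxa1, a phospholipid-binding protein abundant in granulocytes and monocytes, measured 31.1, 14.4 and 35.5 FPKM in MG and 3549, 4123 and 4546 in MP (7.27, adjusted p = 1.03e-06). Ly6c2, the antigen of classical monocytes, measured 2.26, 3.56 and 2.45 and 204, 173 and 225 FPKM (5.75, adjusted p = 0.000115). The groups were far apart for both genes, with no MP library standing out. The calcium-binding S100a11 and S100a6 were higher at 5.70 and 5.01. Neutrophil markers moved in the same libraries, with the sums given above, and their part in these differences was not tested.

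The neutrophil list was higher in MP throughout, with all 20 members called and a median of 6.86. Ltf, the iron-binding lactoferrin of secondary granules (chr9:111019290-111042766), measured 32.4, 40.9 and 16 FPKM in MG and 9415, 10367 and 7358 in MP (8.28 ± 1.43 (SE), adjusted p = 0.000227). Camp, a cathelicidin, measured 113.7, 88.5 and 58.4 and 21374, 17496 and 14726 FPKM, and Ngp, a granule protein, 32.9, 28.3 and 23.9 and 8335, 7291 and 8561. The MP libraries lay close together for these genes, far above MG. The proteases Mmp8 and Mmp9 of the same granule system were higher at 8.07 and 7.73, and the siderophore-binding Lcn2 at 6.70.

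Mpo, the myeloperoxidase of primary granules, measured 2.59, 24.4 and 0.8 FPKM in MG and 504, 1772 and 428 in MP. Replicate 2 was the highest library in both groups. Its difference of 7.05 ± 2.14 (SE), adjusted p = 0.0173, became 6.41 without MP replicate 2 and lost its call there (0.0605) or without MG replicate 1 (0.0576) or MG replicate 3 (0.0729). Without MP replicate 2 the list had 17 members called. Cebpe, the factor that drives granulocyte maturation, measured 1.08, 0.68 and 0.13 FPKM in MG and 134.7, 137.7 and 57.9 in MP (6.03, adjusted p = 3.61e-05). The chemokine receptor Cxcr2, which draws mature neutrophils to tissue, measured 1.16, 3.17 and 1.76 and 318, 212 and 214 FPKM (6.39, adjusted p = 2.51e-05). Cd177 and Itgb2l, surface genes of neutrophils, were higher at 7.99 and 7.52.

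Monocyte and erythroid genes were also higher in MP, with 10 of 16 and 7 of 7 called and none lower (medians 3.06 and 4.37). Chil3, a chitinase-like protein of monocytes and of alternatively activated macrophages, measured 64.2, 42.5 and 59.1 FPKM in MG and 12324, 6222 and 18729 in MP (7.67, adjusted p = 0.00023). Haptoglobin, Hp, which binds free hemoglobin, was higher at 7.83. Hba-a1, an alpha globin, measured 194, 86.9 and 21.4 FPKM in MG and 12815, 5047 and 8418 in MP, and Alas2, the first enzyme of erythroid heme synthesis, was higher at 5.45. The 2 alpha globin genes are near-identical copies, and how their reads were divided was not given in the sources used here.

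Disease-associated microglia genes, the programme of phagocytic microglia near dying neurons, were lower in MP. Of 28 tested, 24 were lower and none higher, with a median of -3.91, and the same number was lower without MP replicate 2 (median -4.70). Trem2 (chr17:48346395-48354147), the lipid-sensing receptor of the programme, measured 1975, 2781 and 1547 FPKM in MG and 7.11, 543 and 5.44 in MP. MP replicate 2 lay between the other MP libraries and MG. The difference was -6.06 ± 1.45 (SE), adjusted p = 0.00365, and -8.14 without that library. Apoe, the lipid carrier and the most abundant gene of the list in MG, measured 36454, 49477 and 36605 FPKM in MG and 933, 11477 and 1805 in MP. The groups did not overlap (-3.91, adjusted p = 0.0186; -4.96 without MP replicate 2), and the call was lost without MP replicate 1 (0.103), MP replicate 3 (0.0678) or MG replicate 2 (0.0556).

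Spp1, the secreted matrix protein osteopontin, measured 4116, 2278 and 3207 FPKM in MG and 14.4, 2218 and 4.02 in MP, so that MP replicate 2 lay just under the lowest MG library. Its difference of -5.81 ± 1.64 (SE), adjusted p = 0.0114, became -8.47 without that library, and lost its call without MP replicate 1 (0.0658) or 3 (0.0912). Gpnmb, a glycoprotein of lipid-laden phagocytes, measured 1492, 1049 and 1828 and 12.8, 89 and 12.5 FPKM (-5.79 ± 0.96 (SE), adjusted p = 0.000154; -6.70 without MP replicate 2). Here MP replicate 2 was closer to the other MP libraries than for Spp1. Cst7, an inhibitor of lysosomal proteases, was lower at -5.75. Tyrobp, the adaptor through which Trem2 signals, was not called (7612, 7805 and 6035 FPKM in MG and 3068, 4165 and 2724 in MP, -1.12, adjusted p = 0.121). It was called in the 6-library fit without the block (0.0173) and with it (0.0148), and after scaling to the same sum (0.0388). The other 3 members not called, Lgals3, Lilrb4a and Cd52, were chosen for naming after their values were seen. Their log2 fold changes were 0.93, 0.21 and -0.01, at adjusted p = 0.0698, 0.771 and 0.993. Lgals3 was called in the 6-library fit without the block (0.0176) and with it (0.0159).

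Promoter windows of the leading genes of these lists were read from RefSeq (GRCm38.p6), from 250 bases before to 50 after each start. Capitals mark a match to the PU.1 core GAGGAAGT in Mpo and Spp1 and to the AP-1 motif TGANTCA in Trem2 and Gpnmb. The 4 windows are shown as examples of leading genes whose start holds a searched motif, Mpo being high in MP and the other three in MG. The window of Cst7 (chr2:150570165-150570464, plus) also holds an AP-1 match and is not printed. A second Spp1 window (chr5:104435942-104436241, plus) holds none of the searched motifs and is not printed either. Coordinates and strands of the printed windows are chr11:87793534-87793833 (plus), chr5:104434861-104435160 (plus), chr17:48346151-48346450 (plus) and chr6:49036268-49036567 (plus).
Mpo: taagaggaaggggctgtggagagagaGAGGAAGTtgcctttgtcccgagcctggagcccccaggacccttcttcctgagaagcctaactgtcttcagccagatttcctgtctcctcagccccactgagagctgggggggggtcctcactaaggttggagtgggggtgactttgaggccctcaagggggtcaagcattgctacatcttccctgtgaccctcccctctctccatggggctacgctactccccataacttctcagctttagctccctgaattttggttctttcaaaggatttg
Spp1: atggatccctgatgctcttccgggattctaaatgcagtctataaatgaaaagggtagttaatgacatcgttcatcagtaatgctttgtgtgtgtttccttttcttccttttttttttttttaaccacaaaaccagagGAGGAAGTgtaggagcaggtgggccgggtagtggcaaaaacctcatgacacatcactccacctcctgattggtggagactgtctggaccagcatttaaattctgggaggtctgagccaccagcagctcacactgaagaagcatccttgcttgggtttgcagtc
Trem2: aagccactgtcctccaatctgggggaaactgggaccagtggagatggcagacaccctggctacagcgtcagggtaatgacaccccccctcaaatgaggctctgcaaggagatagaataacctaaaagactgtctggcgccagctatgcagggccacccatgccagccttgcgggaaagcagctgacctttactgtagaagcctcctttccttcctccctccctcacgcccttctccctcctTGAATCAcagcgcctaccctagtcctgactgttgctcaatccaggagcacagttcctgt
Gpnmb: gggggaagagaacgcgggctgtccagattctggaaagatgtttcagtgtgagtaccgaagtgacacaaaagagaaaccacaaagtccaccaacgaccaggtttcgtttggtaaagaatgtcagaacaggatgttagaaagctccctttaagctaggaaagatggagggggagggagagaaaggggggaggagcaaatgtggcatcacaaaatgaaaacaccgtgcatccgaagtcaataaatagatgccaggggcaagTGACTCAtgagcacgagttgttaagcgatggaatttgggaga

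Matches were counted on both strands over all 32851 windows, of which 3.2% held GAGGAAGT, 7.81% TGANTCA and 4.67% TGCTGAC, a motif of large Maf factors. In the disease-associated list, 24 windows were found for 19 of 28 genes. Of these windows, 29.2% held the AP-1 motif, 8.33% the PU.1 core and 4.17% the Maf motif. In the neutrophil list, 18 windows were found for 17 of 20 genes, and 33.3% held the PU.1 core, 5.56% the AP-1 motif and 11.1% the Maf motif. The 25 windows of the homeostatic list (18 of 30 genes) held the motifs at 4% for PU.1, 8% for AP-1 and 8% for Maf. The 19 windows of the cell cycle list (19 of 22 genes) held them at 0, 0 and 5.26%. A match describes the letters of a window and is not a binding site.

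Of 28 lysosome genes, 21 were lower in MP and none higher (median -2.24), and 13 were lower without MP replicate 1, where Ctsl lost its call (0.0622). Ctsd, the aspartic protease cathepsin D, measured 32789, 41393 and 30129.8 FPKM in MG and 643, 9295 and 832 in MP, with replicate 2 the highest MP library (-4.33, adjusted p = 0.00397; -5.56 without MP replicate 2). Ctsl and the proton pump subunit Atp6v0d2 were lower at -3.98 and -3.90. Lipid efflux and storage genes showed 11 of 18 lower and 2 higher (median -2.31). Abca1, the cholesterol exporter, measured 57.8, 52 and 50.6 FPKM in MG and 0.65, 2.21 and 0.53 in MP, all low (-4.76, adjusted p = 1.92e-05). The lipase Lpl, the fatty acid carrier Fabp5 and the sterol hydroxylase Ch25h were lower at -5.0, -3.98 and -4.14. The MG value of Ch25h in replicate 3 (10.7 FPKM) lay below MP replicate 2 (20.3 FPKM), and its call was lost without MG replicate 1 or 2 or MP replicate 1 or 3 (adjusted p from 0.0513 to 0.0711). Only 1 member of the lipid list was higher without MG replicate 2 or 3 or any 1 MP library.

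Trophic factor genes were lower in MP for 10 of 13 tested and higher for 1 (median -3.48), the higher one not without MP replicate 1. Pdgfb and Vegfb, growth factors for vessel and support cells, were lower at -3.96 and -3.68. Complement and Fc receptor genes divided, with 8 of 20 lower and 3 higher. C1qa, a chain of the initiator of the classical complement pathway, measured 5644, 7494 and 5311 FPKM in MG and 18.2, 1274 and 83.2 in MP (-5.58, adjusted p = 0.0108; -7.24 without MP replicate 2), and C1qb was lower at -4.90. Both lost their calls without MP replicate 1 (adjusted p = 0.081 and 0.105), and the list then had 2 members lower, or 4 without MP replicate 3. On the other side, Cfp, properdin, the stabiliser of the alternative pathway that neutrophils and monocytes store, measured 4.03, 4.18 and 4.04 FPKM in MG and 476, 352 and 753 in MP. The groups were far apart (6.63, adjusted p = 1.31e-06).

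The NADPH oxidase of phagocytes makes superoxide from oxygen. Of 14 tested members of the NADPH oxidase and reactive oxygen list, which also holds enzymes outside the oxidase, 10 were higher in MP and 1 lower (median 2.66), and 8 and 1 without MP replicate 2. Cybb (chrX:9435254-9469324), the catalytic subunit, measured 98.6, 58.5 and 130.03 FPKM in MG and 430.1, 427 and 406 in MP. The MP libraries were close together and all above MG (2.20 ± 0.43 (SE), adjusted p = 0.0007). Its membrane partner Cyba did not pass, at 260.2, 296 and 262 and 446, 439 and 517 FPKM (0.77, adjusted p = 0.149). In the 6-library fit Cyba was called without the block (0.0192) and with it (0.0194). The higher members outside the oxidase were Mpo, Xdh, Alox5, Alox5ap and Alox15. The cytosolic subunits Ncf1 and Ncf4 were higher at 1.78 and 3.26.

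The GTPase Rac2, which switches on the oxidase in blood leukocytes, measured 177, 233 and 126.6 FPKM in MG and 2575, 2263 and 1962 in MP (3.69, adjusted p = 2.93e-05). Its relative Rac1 measured 201, 147 and 221 and 140.3, 128.2 and 161 FPKM and was not called (-0.39, adjusted p = 0.359). The proton channel Hvcn1 was not called either (-0.55, adjusted p = 0.471). The xanthine oxidase gene Xdh and the leukotriene genes Alox5 and Alox5ap were higher at 3.52, 3.26 and 3.12. Alox15, a lipoxygenase of eosinophils and some macrophages, measured 14.5, 21.9 and 157 FPKM in MP and was at most 0.75 in MG (4.57, adjusted p = 0.0364). That call was lost without any 1 library other than MP replicate 1 (adjusted p from 0.0528 to 0.164). The member lower in MP was the cyclooxygenase Ptgs1 at -1.75, a call lost without MP replicate 1 (0.0579). Nox1, Nox4, Duox2, Nos2 and Ptgs2 were under the filter, none above 0.28 FPKM in these 6 libraries. Neutrophil markers were higher in the same libraries, and their part in the differences of this list was not tested.

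Antioxidant genes showed 5 of 21 higher and 2 lower, against 15 and 13.1% of all genes. Glutathione reductase, Gsr, measured 11.2, 10.7 and 14.1 FPKM in MG and 371, 355 and 656 in MP (5.10, adjusted p = 9.83e-07), and the peroxidases Prdx5 and Gpx1 were higher at 3.10 and 1.74. Prdx1 was lower at -1.73, a call lost without MG replicate 1 (0.0642) or MP replicate 1 (0.0643). The 2 lower members became 0 without MG replicate 1 and 1 without MP replicate 1 or 2. The mouse gene Sod1 measured 46.2, 28.1 and 41.5 FPKM in MG and 14.3, 9.26 and 17.1 in MP, lower without overlap (-1.45 ± 0.42 (SE), adjusted p = 0.0132). Its call was lost without MG replicate 1 (0.0608) or MP replicate 2 (0.0644), and whether reads of the human transgene were counted on it was not given in the sources used here.

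**Figure D4:**
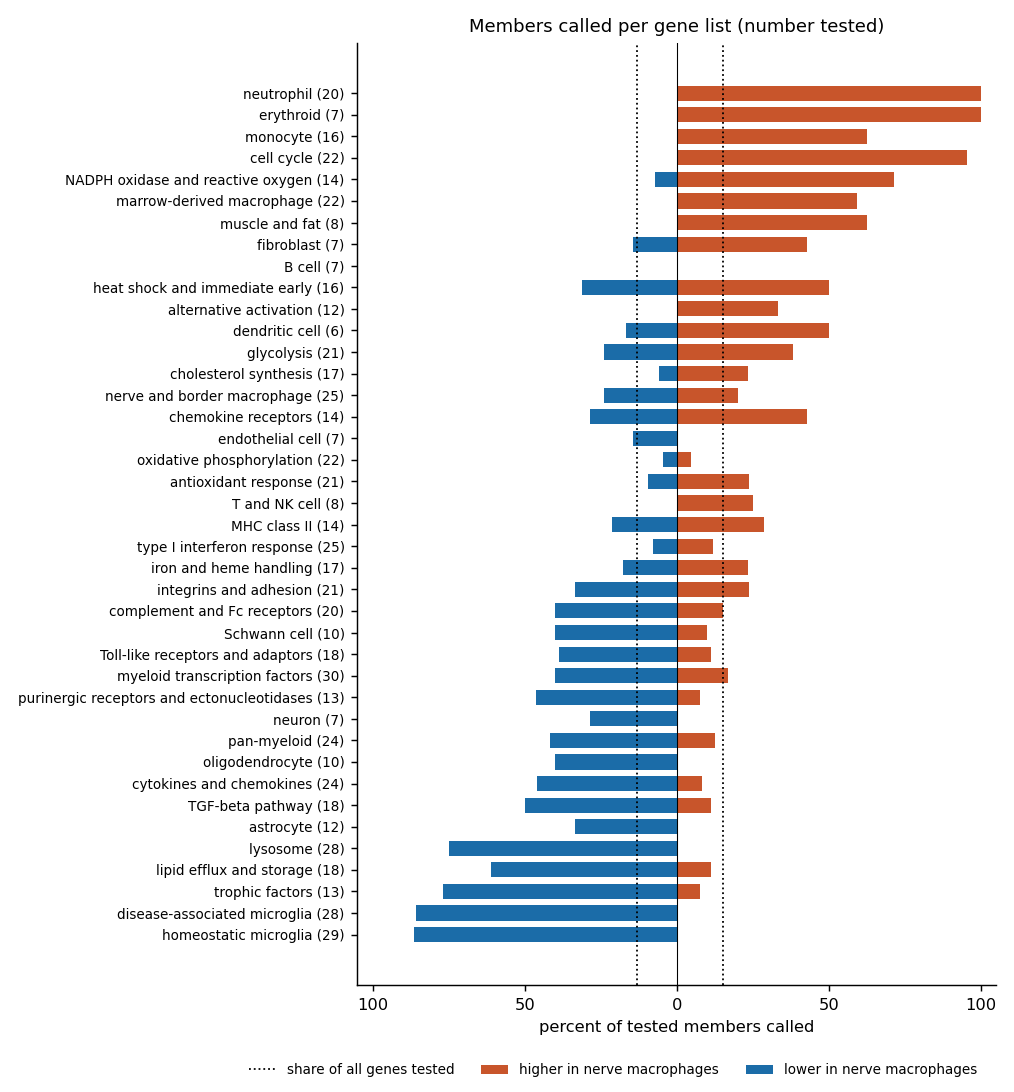
Bars give the percent of tested members of each list called higher (orange, right) or lower (blue, left) in MP at an adjusted p under 0.05, ordered by the median fold change, with the number tested in brackets and dotted lines at the share of all genes (15% higher, 13.1% lower). Neutrophil and erythroid members were all called higher, and 25 of 29 homeostatic members lower. Lists with under 5 members tested are not shown.

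Receptors and ligands of migration were tested next. Of 14 chemokine receptor genes, 6 were higher and 4 lower in MP. The formyl peptide receptors Fpr1 and Fpr2, which sense bacterial and mitochondrial peptides, were higher at 6.51 and 5.73, beside Cxcr2 above. Fpr1 measured 1.16, 2.44 and 0.17 FPKM in MG and 285, 230.2 and 99.5 in MP, with MP replicate 3 the lowest. Of 24 cytokine and chemokine genes, 11 were lower and 2 higher (median -1.57), and 7 were lower without MP replicate 1. Only 1 was higher without any 1 MG library or MP replicate 1. The chemokines Ccl4, Ccl12 and Cxcl16 were lower at -5.30, -5.21 and -5.38. Ccl4 measured 310.1, 300.1 and 189.7 FPKM in MG and 1.59, 87 and 0.29 in MP, and its fold change was -7.16 without MP replicate 2. Ccl12 lost its call without MG replicate 1 or 2 or MP replicate 1 or 3 (adjusted p from 0.0633 to 0.123), and Cxcl16 without MP replicate 1 (0.0583). The inflammatory cytokine Il1b went the other way, at 3.58, 3.2 and 0.73 FPKM in MG and 111.9, 90.8 and 48.3 in MP (4.64, adjusted p = 4.03e-05).

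MHC class II genes were split. Of 14 tested, 4 were higher and 3 lower, and between 1 and 4 were higher without 1 library. H2-Aa, an alpha chain, measured 13.8, 9.97 and 25.2 FPKM in MG and 294, 116.99 and 141 in MP, with replicate 1 the highest (3.39, adjusted p = 0.00746). The beta chains H2-Eb1 and H2-Ab1 were higher at 3.47 and 2.69. Without MP replicate 1, 1 member was higher, and H2-Eb1 (0.0603) and H2-Ab1 (0.103) lost their calls. H2-Ab1 lost its call also without MG replicate 1 (0.0625) or 2 (0.0513), and the list then had 2 members higher in each case. Without MP replicate 3, 1 member was lower. Ctss, a protease of the class II pathway, was on the lower side (above).

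Of 30 myeloid transcription factor genes tested, 5 were higher in MP, near the 15% of all genes, and 12 lower, against 13.1%. Besides Spi1 and Cebpe, the higher genes included Klf2, a factor of circulating leukocytes, at 2.95, 5.84 and 2.97 FPKM in MG and 68.4, 41.4 and 128.8 in MP (3.93, adjusted p = 4.72e-05). The MP libraries all lay above MG. Among the lower genes, Egr1, an immediate early gene, was at -3.72.

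Cell cycle genes were higher in MP for 21 of 22 tested and lower for none (median 2.73), and for 18 without MP replicate 2. Rrm2, a subunit of the enzyme that makes deoxynucleotides, measured 3.24, 2.88 and 2.94 FPKM in MG and 102.96, 92.7 and 105.9 in MP. The 3 MP libraries were close together (4.66 ± 0.59 (SE), adjusted p = 9.39e-06). The mitotic kinases Aurka and Aurkb and the chromosomal passenger Birc5 were higher at 3.94, 3.74 and 3.74. Primary granule genes of immature granulocytes and erythroid genes were higher in the same libraries, and their part in the cell cycle difference was not tested.

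Of 21 glycolysis genes, 8 were higher and 5 lower (median 0.73). Slc2a3, the high-affinity glucose transporter of neurons and leukocytes, measured 2.65, 3.8 and 4.55 FPKM in MG and 136.4, 142 and 156 in MP (4.98, adjusted p = 2.67e-05), and Gpi1, glucose phosphate isomerase, was higher at 3.57. Slc2a5, a fructose transporter of microglia, and Aldoc, a brain aldolase, were lower at -3.94 and -5.64. The 5 lower members became 2 or 3 without any 1 of the 6 libraries. Of 22 oxidative phosphorylation genes, 1 was higher (Uqcrc1, 0.98) and 1 lower (Ndufa1, -0.93), a smaller share than over all genes, and neither was called without MP replicate 2 (adjusted p = 0.0605 and 0.0823). Uqcrc1 lost its call also without MG replicate 1 or 2 or MP replicate 3 (0.0539 to 0.0768), and Ndufa1 without MG replicate 1 or 3 or MP replicate 1 or 3 (0.0919 to 0.147). Its median of 0.08 turned to -0.12 after median-ratio scaling and -0.17 after scaling to the same sum.

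Signalling and adhesion lists were mixed. TGF-beta pathway genes were lower for 9 of 18 and higher for 2, and no member was higher without MG replicate 1 or MP replicate 1 or 2, and 1 without any other library. Tgfbr2, the ligand-binding receptor, was lower at -2.94, and the co-receptor Eng at -3.46. Purinergic genes were lower for 6 of 13 and higher for 1, with P2ry6 and P2rx7 lower at -3.70 and -2.29, and 3 lower without MG replicate 1 or MP replicate 3. P2rx7 lost its call without MG replicate 1 or 3 or MP replicate 2 or 3 (0.0512 to 0.0577), and the higher member its call without any 1 MG library or MP replicate 1. Integrin and adhesion genes showed 5 higher and 7 lower of 21, against 15 and 13.1% of all genes. Itgb7, an integrin beta chain of leukocytes, measured 0.94, 1.42 and 0.82 FPKM in MG and 68, 46.8 and 118.3 in MP (5.16, adjusted p = 3.79e-05). Itgb5 and Itgax were lower at -5.12 and -4.64, and 4 members of the list were lower without MP replicate 1.

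Toll-like receptor genes were lower for 7 of 18 and higher for 2. The co-receptors Ly86 and Cd180 were lower at -4.08 and -4.0, and the adaptor Tirap higher at 3.03. Iron and heme genes showed 4 higher and 3 lower of 17, against 15 and 13.1% of all genes. The higher ones were led by the granule and plasma proteins Ltf, Hp and Lcn2, and included the iron exporter Slc40a1 (2.93). Alternative activation genes were higher for 4 of 12 and lower for none, led by Chil3, and 2 were higher without MG replicate 3. Interferon response genes were near the background, with 3 higher and 2 lower of 25, among them Ifitm3 at 2.64 and Bst2 at -3.14. Cholesterol synthesis genes were higher for 4 of 17, among them Fdps and Mvd at 1.67 and 1.58, and 0 to 2 were higher without any 1 library other than MG replicate 2. Fdps lost its call without MG replicate 3 (0.085) or MP replicate 2 (0.0544), and Mvd without MG replicate 1 or 3 or MP replicate 2 or 3 (0.0505 to 0.12). Of 16 heat shock and immediate early genes, 8 were higher and 5 lower, with Dusp1 at 4.39, Fos at 3.49 and Hspb1 at -3.48. Without 1 of the 6 libraries, 4 to 7 were higher and 2 to 5 lower.

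Astrocyte genes were lower in MP for 4 of 12, and the list summed to 707, 264 and 639.5 FPKM in MG and 3.21, 16.3 and 1.81 in MP. Gfap, the astrocyte filament, measured 640.0, 242 and 573 FPKM in MG and 1.93, 14.2 and 0.23 in MP (-6.88, adjusted p = 0.000871; -7.88 without MP replicate 2). MG replicate 2 was the lowest MG library, as it was for Mobp at 473, 132.4 and 476 FPKM. Oligodendrocyte genes were lower for 4 of 10, with sums of 2207, 810.1 and 2128 FPKM in MG and 186, 214 and 27.9 in MP, and for 2 without MG replicate 1 or MP replicate 3. Schwann cell genes, which mark the nerve, were not higher as a group: 1 of 10 was higher and 4 lower, among them Pmp22 (-3.98). The higher one lost its call without MG replicate 1 or 3 or MP replicate 1. Their part in other differences was not tested.

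The same cell difference was present in mice with WT marrow at end stage. Their 6 libraries do not enter the fold changes above, but all grafted libraries share a fit, its gene filter and its variance per gene. The calls of the grafted sets are therefore not independent. Fitted with only the libraries compared, 4637 genes were called with G93A marrow and 1936 with WT marrow. In the shared fit, 3511 genes were called with WT marrow (31.7%), 1517 higher and 1994 lower (13.7 and 18.0%). Of the genes higher with G93A marrow, 1057 were also higher with WT marrow, which is 63.8% of the first list and 69.7% of the second. Of the lower genes, 1010 were shared, 69.9 and 50.7% of the lists, and 3 genes had opposite calls. In early symptoms with G93A marrow, 2296 genes were called (20.7%; 10.4% higher and 10.3% lower), and 982 higher and 884 lower genes were shared, 59.2 and 61.2% of those at end stage and 85.1 and 77.4% of the early lists. The early count was 1282 without MG replicate 1, 1374 without MG replicate 2 and 1485 without MP replicate 3. In mice without a graft, 4570 of 11581 genes were called (39.5%; 13.1% higher and 26.3% lower), and 1180 higher and 1175 lower genes were shared, 72.5 and 86.2% of the grafted calls and 78.3 and 41.0% of the non-grafted calls among genes tested in both. That table was fitted apart and may be scaled apart, so its values are only set side by side.

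**Figure D5:**
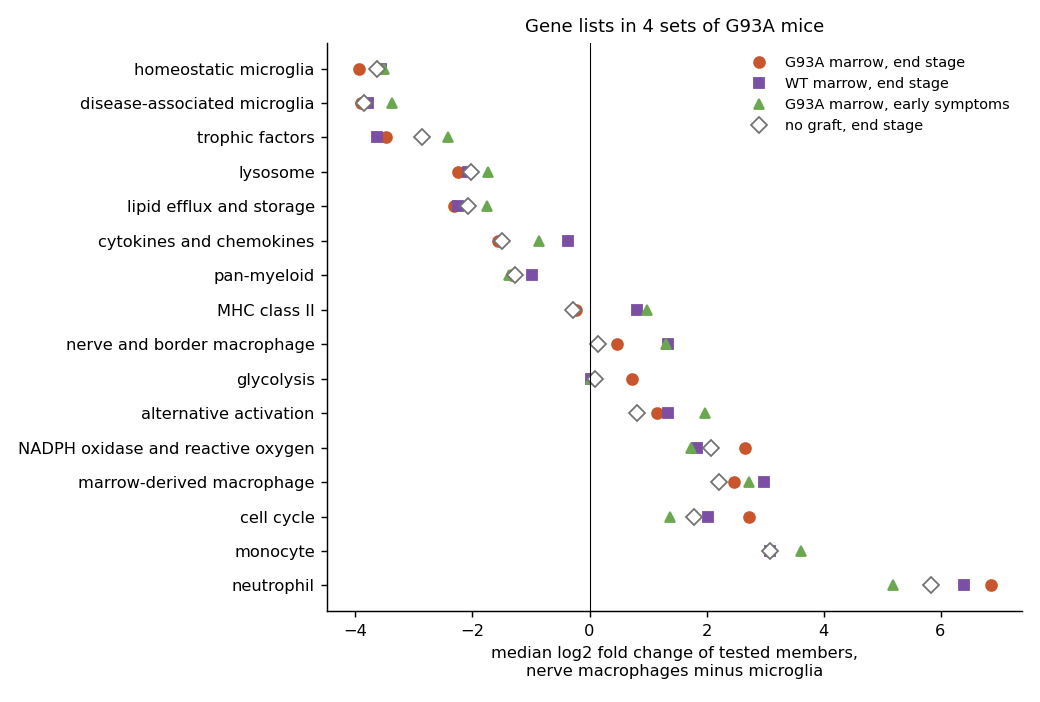
Points give the median log2 fold change (MP minus MG) of the tested members of 16 gene lists in 4 sets of G93A mice. Lists from homeostatic microglia to pan-myeloid lie below 0 in every set and those from alternative activation to neutrophil above 0. MHC class II lies at -0.23 and -0.28 at end stage with G93A marrow and without a graft, and at 0.82 and 0.99 in the other sets.

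By list, homeostatic genes were lower for 22 of 29 with WT marrow, 23 in early symptoms and 27 without a graft. Neutrophil genes were higher for 17, 16 and 19 of 20, and cell cycle genes for 14, 6 and 18 of 22. Members of the NADPH oxidase and reactive oxygen list were higher for 9, 7 and 8 of 14. Single genes kept their order to different degrees. Cybb was higher at 1.54 with WT marrow and 1.54 in early symptoms, and at 1.58 (adjusted p = 0.0976) was not called without a graft. Itgam measured 51.2, 185 and 66.5 FPKM in MP with WT marrow against 224, 188 and 296 in MG and was lower there (-1.42, adjusted p = 0.0182). It was not called in early symptoms (-0.35) or without a graft (0.13).

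The microglial genes were lower in every set with 2 exceptions. Tmem119 was at -4.99, -3.93 and -5.15 (WT marrow, early symptoms, no graft), the early value not called (adjusted p = 0.0558). Apoe was at -3.13, -3.93 and -4.26, the WT marrow value not called (adjusted p = 0.0519). P2ry12 (-3.57, -3.99 and -6.74), Cx3cr1 (-3.82, -3.51 and -4.46), Sall1 (-3.50, -3.58 and -3.30) and Trem2 (-4.20, -4.57 and -5.88) were lower in each. So were Aif1 (-2.79, -2.82 and -2.80) and Ms4a7 (-2.83, -3.25 and -2.20). High microglial genes in 1 MP library were not limited to the end stage: Tmem119 measured 27, 233 and 3.4 FPKM in MP in early symptoms, highest in replicate 2. Mrc1, Ptprc and Sod1 were not called in any of the 3 other sets, with fold changes from -0.66 to 0.98.

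Whether the cell difference depended on the marrow donor or on the stage was tested as an interaction in the same fit. No gene was called by limma for the donor (0.0%) or for the stage (0.0%), while 963 and 208 genes had an unadjusted p under 0.05. For the donor the count rested on 1 library: without replicate 2 of MP with WT marrow, 178 genes were called, 159 with a higher difference under G93A marrow and 19 with a lower one. The interaction for Itgam was 1.74 (adjusted p = 0.449) between donors and that for Cybb 0.66 (adjusted p = 0.819). For Trem2 it was -1.86 ± 2.06 (SE) between donors and -1.50 ± 2.06 between stages, each smaller than its standard error.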

How the data were processed

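The authors deposited FPKM values per gene in 2 tables, one of 23 grafted and one of 51 non-grafted libraries, per the file headers. The submitters' processing notes name mm10, FastQC, Picard, SAMtools, DESeq2 and R 3.2.5. The aligner, the counter and the use of strand were not given in the sources used here. Depth being unknown, values carry no counting interval. No statement is made on separate animals beyond the labels' 1 mouse per nerve library, so p-values measure the spread between libraries. In the grafted fit that spread is pooled per gene over all 8 groups, and is not that of the 6 libraries compared alone.

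Of 58976 features, 22928 had a symbol of their own and were kept. Values were tested as log2(FPKM + 1), which understates the change of low genes, for 11068 genes with a mean of at least 1 FPKM over the grafted libraries. limma 3.58.1 in R 4.3.3 was fitted to all grafted groups (15 residual degrees of freedom), with Benjamini-Hochberg adjustment over all genes. The non-grafted table was fitted apart. Python 3.11.15 was used for summaries. On simulated data for the main comparison with 11068 genes, 49% of 100 genes changed by 2 on the log2 scale and 77% of 100 changed by 4 were recovered, with 3 false calls. The simulation changed no other genes and drew independent noise, whereas 28% of genes were called in the data. Its rates therefore do not carry over to the real comparison.

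In the main comparison, same-numbered MP and MG libraries deviated weakly together (correlations 0.136, 0.173 and 0.316). With WT marrow (0.173, -0.06 and -0.022) and in early symptoms (0.146, -0.038 and 0.176) the correlations were not all positive. No label gives a pairing, so the main fit compares unpaired group means. Fits with a replicate block are given only as alternatives.

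Named genes are the 15 largest called differences each way without overlap and with a mean of 5 FPKM or more in either group, the 10 largest each way among myeloid and function lists, up to 4 per list, every member of 4 lists, and 13 genes given in every comparison. The members and the 44 gene lists were chosen with earlier results of these data known. Listed genes that the table does not name (such as Lyz2, Maf and Jun) were not used, and some named by this rule are not reported here. Alternatives were other pseudocounts, no filter, other scalings, a replicate block, fits of the compared libraries alone, library weights and leaving out each library.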

Additional observations from a re-analysis of the deposited data

Results flagged for a closer look

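In the non-grafted end-stage groups of 4 libraries, 6 of 26 gene and group combinations held a library far from the other 3. The rule used flags about 1 in 20 independent combinations by chance. That rate is no measure here, because 4 of the 6 came from 1 library. The other 2 had only values of 0 beside them, where any value above 0 is flagged. MG replicate 4 was apart for 4 genes. Cx3cr1 measured 166.23 FPKM there, against 456.83 to 480.56 in the other MG libraries. Trem2 measured 578.22 FPKM against 1508.62 to 1569.51, and Apoe 12492.93 against 29088.81 to 31000.78. Mrc1 measured 1.67 FPKM against 0.26 to 0.49. In that library S100a8 and S100a9, neutrophil genes chosen after their values were seen, made up 6.26% of all FPKM and hemoglobin genes 1.67%, against 0.07 to 0.27% and 0 to 0.1% in the other MG libraries, and their part was not tested. MP replicate 3 was apart for 2 microglial genes, with P2ry12 at 24.41 FPKM and Sall1 at 0.82, both listed at 0 in the other 3 MP libraries. The groups of 3 grafted libraries were not examined in this way.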

How the results depend on the processing

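Of the 151 named genes called in the main comparison, none changed direction under any alternative run, 13 lost the call under at least one alternative that kept every library, and 31 without some library. The former were Acta1, Apoe, Ccl12, H2-Ab1 and P2rx7 without the filter, Mgl2 with a pseudocount of 5, Uqcrc1 under both scalings, and Alox15, Irf8, Mpo, Mvd, Ndufa1 and Upk1b under more than one alternative. The main count of 3103 became 6227 with library weights, which ran from 0.145 to 166, 4637 with only the 6 libraries compared, and 5204 with the replicate block and only those libraries, an alternative chosen after seeing the data. The replicate block in the full fit gave 3076 calls; of the named genes it changed the call of Ccl6 and no other. Of 35 named genes not called, 15 gained a call with weights, 12 with only the libraries compared, 13 with those and the block, 3 with scaling outside the blood cell lists, and 2 with each of the other scalings (Adgre1 with both, Unc93b1 with median-ratio scaling and Tyrobp with the same sum). Without 1 library the count ran from 2201 to 2691.

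With WT marrow, 1936 genes were called with only the libraries compared, and 2560 to 3522 without 1 library. In early symptoms, 3528 were called with library weights, and 1282 to 2466 without 1 library. Without a graft the range was 3750 to 4472. The donor interaction gave 2 genes with library weights, 1 with a pseudocount of 0.1, and 0 to 178 without 1 library, with 4 without replicate 3 of MP with WT marrow. The stage interaction gave 2 genes without the filter and 0 without any 1 library. The cause of these moves was not tested.

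Named genes that were not called changed sign as follows. Scaled to the same sum, Ednrb stood at -0.08, Fcgr3 at -0.207 and Lilrb4a at -0.047. With a pseudocount of 0.1, Ccl24 was at -0.135 and Ednrb at -0.651. With weights, Ednrb was at -0.125 and Fcgr3 at -0.004, and after median-ratio scaling Fcgr3 was at -0.149. Scaled outside the blood cell lists, chosen after seeing the data, Cd52 was at 0.235. Without 1 library, Cd52 ran from -0.123 to 0.177, Pf4 from -2.726 to 0.035, Ccl24 from -0.385 to 0.835, Timd4 from -0.041 to 0.955, Ednrb from -0.707 to 0.578 and Fcgr3 from -0.153 to 0.249. Of 44 lists, 7 changed the sign of their median under some alternative, and of the 27 with a median of at least 1 in size, 1 did (mural cells).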

Other observations

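Markers of rarer cells were also measured, and those named as listed at 0 were chosen after their values were seen. Hdc, the histamine-forming enzyme of mast cells, basophils and some granulocytes, measured 0.79, 0.64 and 0.67 FPKM in MG and 224, 119.9 and 249 in MP (6.80, adjusted p = 2.73e-06 with limma), while the mast cell proteases Mcpt4 and Cma1 were listed at 0 in all 3 MP libraries. Flt3, a receptor of progenitors and dendritic cells, was at 0.26, 0.07 and 0.53 and 29.7, 4.75 and 29.4 FPKM (3.78). The T and NK cell list summed to 15.8, 8.21 and 7.78 FPKM in MG and 90.5, 108.1 and 34.2 in MP, with Cd3e, Cd8b1, Lck, Gzma and Eomes listed at 0 in all MP libraries, and the B cell list to 4.38, 4.03 and 3.18 and 128.7, 47.5 and 7.49, highest in MP replicate 1.

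Fibroblast markers summed to 92.8, 103.4 and 70.5 FPKM in MG and 678, 726 and 544 in MP. Of 7 tested, 3 were higher and 1 lower, the lower one not without any 1 of the 6 libraries, and Gsn, the actin-severing gelsolin that macrophages also express, gave most of the sum at 503, 587 and 451 FPKM in MP. Pdgfra, Dpt, Clec3b and Fbln1 were listed at 0 in all MP libraries. Muscle and fat genes were higher for 5 of 8, and for 1 to 7 without 1 library. Acta1, skeletal muscle actin, measured 52.8, 0.11 and 26.9 FPKM in MP, high in replicates 1 and 3, and 0.18, 0.05 and 0.1 in MG (3.42, adjusted p = 0.0186). Its call was lost without MG replicate 2 (0.0504), MG replicate 3 (0.0502), MP replicate 1 (0.136) or MP replicate 3 (0.0952). Neuron markers summed to 24.5, 8.86 and 30 FPKM in MG and 0.13, 2.16 and 0.14 in MP. Endothelial markers summed to 38.9, 23 and 25.1 and 21.2, 20 and 8.4 FPKM, mural to 26.1, 30.2 and 33 and 30.1, 15.6 and 14.8, platelet to 31.4, 27.1 and 24.8 and 9.31, 16.5 and 52.2, ependymal to 3.12, 2.15 and 8.47 and 1.23, 0.78 and 0.53, and dendritic to 120.6, 100.5 and 99.7 and 91.6, 56.4 and 43.2. The dendritic list also holds Siglech, a member of the homeostatic microglia list that was lower in MP (above). Its sum therefore does not measure dendritic cells, and of 6 members tested, 3 were higher in MP and 1 lower.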
